A study of Homo sapiens with 4 samples.

Results

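Heat shock proteins, their cochaperones and the heat shock factors were examined with and without overexpression of the transcription factor ETS1 in TE5, an established line from a human squamous carcinoma of the oesophagus. The 51 genes were chosen by symbol, as members of the HSP90, HSP110, small HSP, HSP40 (J protein), BAG, CCT and prefoldin families, the mitochondrial chaperonin, HSP90 and HSP70 cochaperones and the heat shock factors. All 51 were found among the 55764 gene names in the deposited table. RNA was sequenced in bulk from 2 libraries labelled ETS1 overexpression and 2 control libraries, whose genotype label is WT and which carried the empty backbone according to the series design. The labels describe CMV vectors delivered by lentivirus, and do not say whether each line was a pool or a clone, or whether libraries 1 and 2 of a group came from separate cultures. The p-values below therefore set the group difference against the spread between these libraries, which may be technical. That spread is estimated in part from other genes.

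Chaperones bind unfolded protein and are grouped by partner and size. HSP70 takes up clients brought by J proteins, nucleotide exchange factors of the HSP110 and BAG families release them, and HSP90 finishes many signalling proteins with the help of cochaperones that deliver clients or stimulate its ATPase. The ring-shaped CCT complex, fed by prefoldin, folds actin and tubulin. Under proteotoxic stress, HSF1 binds heat shock elements and induces many of these genes, and tumours often carry high chaperone levels. The label of the set says cytosolic, but TRAP1, HSPD1, HSPE1 and DNAJA3 encode proteins that work in mitochondria, and HSPB11 is better known as a subunit of intraflagellar transport than as a small heat shock protein.

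The unit of level is FPKM, fragments scaled to gene length and library depth. Read counts could be recovered from the deposited values, and the ETS1 libraries were deeper, with 57269982 and 56502877 reads against 40356722 and 44119605 in the controls. ETS1 itself had an FPKM of 0.491 and 0.509 in the controls and 1.84 and 1.87 in the ETS1 libraries, so the targeted gene followed the labels. The squamous markers KRT5, KRT14, KRT6A, TP63 and DSG3 were at most at 0.0165 FPKM in every library, while KRT8 and KRT18 lay between 3.87 and 10.5 FPKM, so these squamous markers were at or near 0. SOX2, a squamous lineage factor, was expressed at 2.72 to 3.82 FPKM. The other epithelial markers were low, with EPCAM at 0.915 to 1.37 FPKM and CDH1 at 0.567 to 1.08 FPKM. The leukocyte and stromal markers PTPRC, CD3E, COL1A2, PDGFRB and DCN were at most at 0.0696 FPKM, while COL1A1 lay between 2.06 and 2.88 FPKM. In bulk RNA, fewer cells expressing a gene and less RNA per cell cannot be told apart.

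All 51 genes reached the minimum mean level of 1 FPKM and were tested, at mean levels from 3.99 FPKM (BAG2) to 346.1 FPKM (HSP90AB1) and with at least 585 reads in any library. With limma on log2(FPKM + 1), adjusted over all 14306 genes tested, 27 were lower and 6 higher in the ETS1 libraries at an adjusted p under 0.05. These are 52.9% and 11.8% of the 51, where 28.4% of all genes tested were lower, 30.7% higher and 59.1% one or the other. The median log2 change was -0.14 for the 51 genes and 0.016 for all genes tested. At an unadjusted p under 0.05, 36 of the 51 passed, beside 64.4% of all genes. None of the 51 changed by 2-fold: the largest changes were HSPE1 (-0.91), HSPB8 (0.74), HSF1 (-0.63) and DNAJC2 (-0.61). Both ETS1 values lay under both control values for 32 of the 51 and above them for 14, where the shares over all genes were 38.9% and 43.1%, or 82.0% in either direction. Quantile normalization moved the calls to 24 lower and 13 higher, beside 3898 lower and 4237 higher of all 14306 genes, while median centring left 28 lower and 6 higher. The authors' deposited table called 29 of the 51 lower and 6 higher, beside 25.9% and 25.3% of its genes with an adjusted p, and 49 of the 51 had the same call in both.

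**Figure D1:**
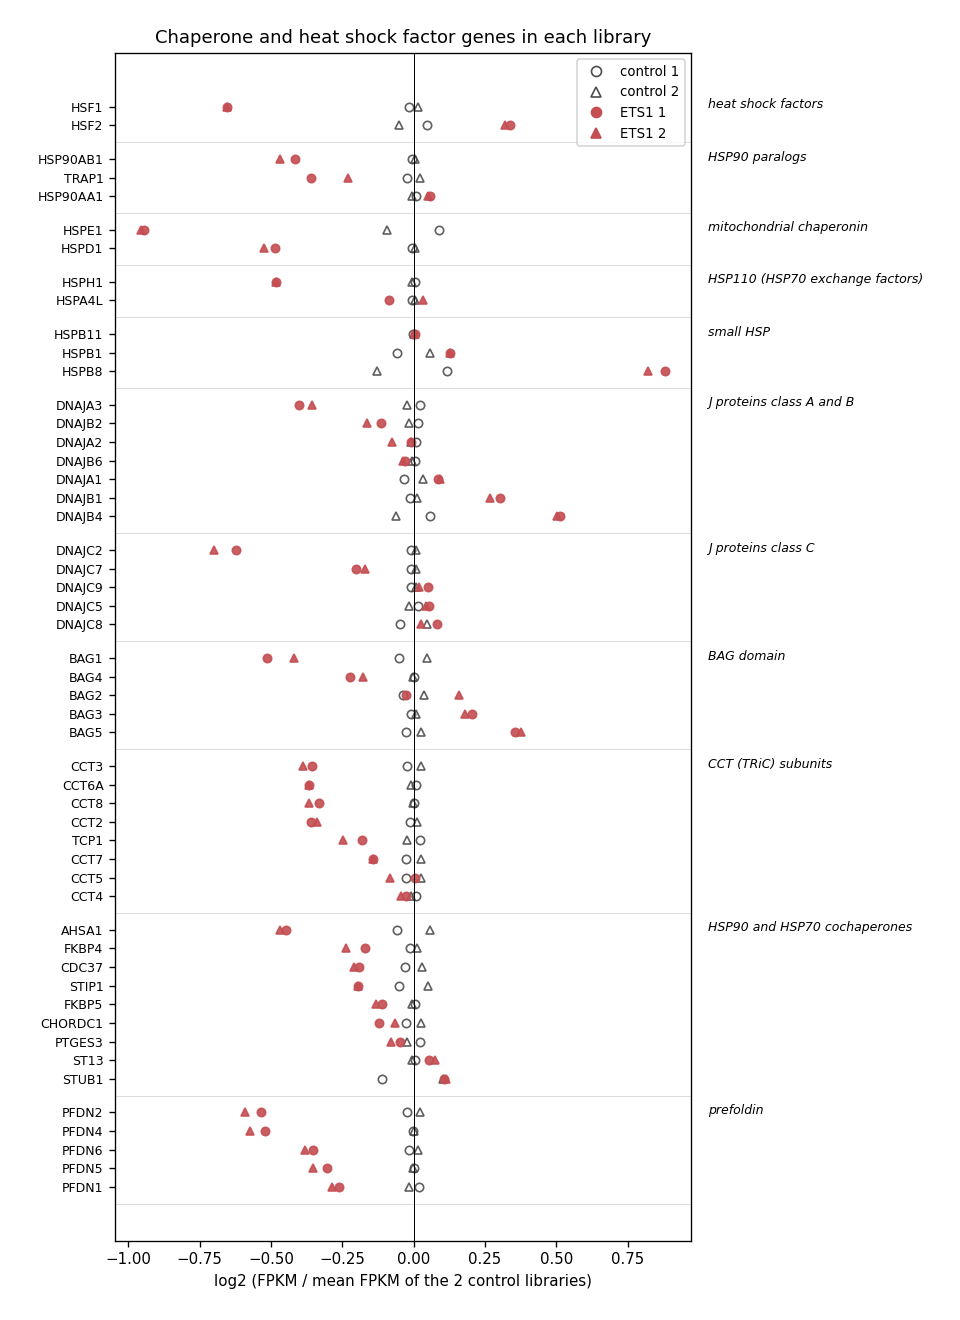
Each point is 1 library, placed on the horizontal axis at the log2 ratio of its FPKM to the mean of the 2 control libraries, for all 51 genes grouped by role (open grey, control; filled red, ETS1; circles and triangles, replicates 1 and 2). HSPE1 lies furthest to the left and HSPB8 furthest to the right, and every prefoldin gene has both ETS1 points to the left of both control points.

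The heat shock factors moved in opposite directions. HSF1, the main activator of the heat shock response, lies on chromosome 8 (144291591 to 144314722, GENCODE 29 on GRCh38) and had 28.8 and 29.5 FPKM in the controls and 18.5 and 18.5 FPKM in the ETS1 libraries. The groups were apart by far more than the spread within either, a fall of 36.4% with a log2 change of -0.63 (SE 0.0285, limma adjusted p 0.000476). HSF2, a related factor active in development and able to form mixed trimers with HSF1, lies on chromosome 6 (122399546 to 122433119) and had 20.5 and 19.2 FPKM in the controls and 25.1 and 24.8 FPKM in the ETS1 libraries. It rose by 0.31 (SE 0.0406, limma adjusted p 0.00311), without overlap. HSF1 stood at 1.40 and 1.54 times the FPKM of HSF2 in the controls and at 0.739 and 0.746 times in the ETS1 libraries, so the order of the 2 factors was exchanged. The tested protein-coding genes of chromosome 8 had a median log2 change of -0.15, with 49.5% called lower, beside 0.035 and 27.7% over all chromosomes. With the chromosome median removed, HSF1 was still lower (-0.48, limma adjusted p 0.000242).

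The promoter windows of the members were searched for heat shock elements, because these are the sites that HSF1 and HSF2 bind. Windows of 250 bases before to 50 bases after a start came from RefSeq (GRCh38.p14) and matched 43 of the 51 genes, with 61 windows in all. BAG4, CCT6A, FKBP4, HSF1, HSPB11, PFDN2, ST13 and STUB1 had no entry. The element was taken as the unit GAA alternating with its inverse TTC, with 2 bases between units, searched on both strands. At least 2 units stood in a window of 17 of the 43 genes (39.5%), beside 16.2% of all 27305 genes with a window, and at least 3 units in 6 of the 43 (14%), beside 0.608%. By call, 2 or more units were found in 3 of 6 higher genes, 6 of 22 lower genes and 8 of 15 genes that were not called. A match is a description of letters and not a bound site. The genes below are the 5 with 3 or more units before the start and the 3 higher genes with a match. They are shown 5′ to 3′ on the gene's strand with the units of 1 run in capitals, trimmed to at most 30 bases where GENCODE 29 marks an exon.

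CHORDC1: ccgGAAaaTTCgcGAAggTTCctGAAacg
HSPD1: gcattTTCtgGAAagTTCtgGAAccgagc
DNAJB6: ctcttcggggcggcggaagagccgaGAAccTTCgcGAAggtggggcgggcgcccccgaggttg
HSP90AA1: gagggttcTTCcgGAAggTTCgggaggct
HSP90AB1: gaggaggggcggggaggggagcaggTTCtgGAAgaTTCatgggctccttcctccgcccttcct
DNAJB1: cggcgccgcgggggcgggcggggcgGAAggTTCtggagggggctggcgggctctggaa
DNAJB4: agcatttgctgTTCtaGAAagtacagagac
HSPB8: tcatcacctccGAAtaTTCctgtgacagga

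The run of 5 units at CHORDC1 begins 60 bases before the start (chr11:90223084-90223112, minus strand) and the run of 4 units at HSPD1 begins 245 bases before it (chr2:197500062-197500090, minus strand). The runs of 3 units begin 131 bases before the start at DNAJB6 (chr7:157336848-157336910, plus strand), 88 bases before it at HSP90AA1 (chr14:102087112-102087140, minus strand) and 165 bases before it at HSP90AB1 (chr6:44247753-44247815, plus strand). HSP90AB1 has a further run of 3 units nearer the start, which is not shown. The pairs of units begin 77 bases before the start at DNAJB1 (chr19:14518442-14518499, minus strand), 98 bases at DNAJB4 (chr1:78004830-78004859, plus strand) and 88 bases at HSPB8 (chr12:119178832-119178861, plus strand). DNAJB1 has a further pair nearer the start, and its first unit is the lower-case end of the stretch shown. Several members have more than 1 RefSeq start, and all 8 stretches lie inside the extent that GENCODE 29 gives the gene, 5 of them over an annotated exon. The stretch at HSPD1 also lies inside the extent of its neighbour HSPE1. The 5 genes with the longer runs did not move together: HSPD1 and HSP90AB1 were called lower, while CHORDC1, DNAJB6 and HSP90AA1 were not called. A list of 22 textbook HSF1 targets, 15 of them among the 51 genes, was chosen with earlier results of these data known. It had 11 called lower and 3 higher of 21 tested (52.4% and 14.3%, beside 28.4% and 30.7% of all genes), with a median log2 change of -0.16. Several of these targets are abundant, and 60.6% of all genes over 50 FPKM and 39.1% between 10 and 50 FPKM were lower. Whether the list differs from other genes of its level was not tested. The 15 alone had 7 lower and 3 higher, with a median of -0.078, and 6 lower and 6 higher under quantile normalization. The other 36 genes had 20 lower and 3 higher, with a median of -0.16.

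The cytosolic HSP90 paralogs separated. HSP90AB1, the constitutive form, had 397.6 and 399.9 FPKM in the controls and 298.7 and 288.4 FPKM in the ETS1 libraries. This was a fall of 26.4% without overlap (log2 change -0.44, SE 0.0301, limma adjusted p 0.000733). HSP90AA1, the stress-inducible form, had 223.7 and 221.5 FPKM in the controls and 231.9 and 230.7 FPKM in the ETS1 libraries. Its ETS1 values lay above both controls, but the difference of 3.9% did not pass (0.055, SE 0.0251, limma adjusted p 0.118). The ratio of HSP90AA1 to HSP90AB1 was 0.563 and 0.554 in the controls and 0.776 and 0.800 in the ETS1 libraries. Such a ratio does not depend on a factor applied to a whole library. The change of each paralog does depend on the normalization: under quantile normalization HSP90AB1 changed by -0.22 (adjusted p 0.00736) and HSP90AA1 by 0.21 (adjusted p 0.00194). TRAP1, the mitochondrial paralog, was the least abundant, at 11.5 and 11.9 FPKM in the controls and 9.11 and 9.96 FPKM in the ETS1 libraries, and fell by 0.27 (SE 0.0498, limma adjusted p 0.00909).

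Of the 9 cochaperones of HSP90 and HSP70, 4 were lower (44.4%) and 0 higher by limma over all genes, beside 28.4% and 30.7% of all genes tested, with a median change of -0.10. The authors' deposited table also calls PTGES3 and FKBP5 lower, with adjusted p of 0.0491 and 0.0292. Quantile normalization gave 3 lower and 2 higher. AHSA1, which stimulates the HSP90 ATPase, moved most, from 64.2 and 69.7 FPKM to 49.2 and 48.4 FPKM. Its fall of 27.1% (log2 change -0.45, SE 0.0449, limma adjusted p 0.00161) exceeded the gap between the controls, which was the widest of the called cochaperones in FPKM. STIP1 (HOP), which links HSP70 to HSP90, went from 46.5 and 49.9 to 42.1 and 42.2 FPKM, CDC37, which delivers kinases, from 71.4 and 74.5 to 63.9 and 63.1 FPKM, and the immunophilin FKBP4 from 42.7 and 43.4 to 38.3 and 36.5 FPKM. These 3 falls of 12.6% to 13.1% passed with limma adjusted p of 0.0141, 0.00596 and 0.00684 and none passed under quantile normalization (-0.076, -0.027 and -0.096). STIP1 also did not pass without either ETS1 library (-0.19 each time, adjusted p 0.0598 without replicate 1 and 0.0608 without replicate 2).

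The other 5 cochaperones did not pass, and each of them passed under at least 1 alternative. PTGES3 (p23), which holds HSP90 in its closed form, had 123.4 and 119.8 FPKM in the controls and 117.7 and 115.0 in the ETS1 libraries (-0.063, limma adjusted p 0.126), and it was at 0.10 (adjusted p 0.0324) under quantile normalization and at -0.13 (adjusted p 0.00943) with the chromosome median removed. FKBP5, an immunophilin induced by glucocorticoids, went from 6.08 and 6.04 to 5.61 and 5.53 FPKM (-0.10, adjusted p 0.0529), just outside the threshold, and passed under 7 of 15 alternatives (-0.24 with the length trend removed). CHORDC1, an HSP90 partner with the longest run of heat shock units above, had 4.92 and 5.11 against 4.61 and 4.79 FPKM (-0.078, adjusted p 0.166), and was at -0.22 (adjusted p 0.01) with the length trend removed. ST13 (HIP), which stabilises the ADP-bound state of HSP70, had 83.5 and 82.7 against 86.3 and 87.6 FPKM (0.064, adjusted p 0.0849), and was at 0.20 (adjusted p 0.00371) under quantile normalization. STUB1 (CHIP), the ubiquitin ligase of chaperone clients, had 10.7 and 12.4 against 12.5 and 12.5 FPKM (0.10, adjusted p 0.247). The value of STUB1 rested on which control was used, at 0.0066 (adjusted p 0.89) without control replicate 1 and 0.20 (adjusted p 0.0143) without control replicate 2.

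Among the partners of HSP70, the exchange factor HSPH1 (HSP110) fell from 37.2 and 37.0 FPKM to 26.6 and 26.6 FPKM. Replicates were almost equal in both groups, and the fall of 28.4% gave a log2 change of -0.47 (SE 0.0257, limma adjusted p 0.000539). HSPA4L, its relative that is abundant in testis, had 6.61 and 6.65 against 6.24 and 6.78 FPKM, with the controls inside the range of the ETS1 libraries (-0.023, adjusted p 0.692; 0.029 without ETS1 replicate 1; -0.17, adjusted p 0.0226, with the length trend removed).

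The 12 J proteins, which bring clients to HSP70 and stimulate its ATPase, held members of both directions. Of the 7 of classes A and B, 2 were higher, 2 lower and 3 not called, so the 28.6% in each direction was near the 30.7% higher and 28.4% lower of all genes tested. DNAJB1, the main heat-inducible cytosolic J protein, rose from 23.6 and 23.9 FPKM to 29.3 and 28.6 FPKM, by 22.0% (log2 change 0.28, SE 0.0291, limma adjusted p 0.00181). DNAJB4, a close relative, rose from 4.88 and 4.49 FPKM to 6.68 and 6.63 FPKM, by 42.2% (0.43, SE 0.0471, limma adjusted p 0.00198). Neither pair overlapped. DNAJA3, a mitochondrial J protein also called TID1, fell from 17.2 and 16.6 FPKM to 12.8 and 13.2 FPKM (-0.36, SE 0.0343, limma adjusted p 0.00148). DNAJB2 went from 8.35 and 8.15 to 7.61 and 7.36 FPKM and passed only narrowly (-0.12, adjusted p 0.035), and it did not pass when any 1 library was left out, with adjusted p from 0.0586 to 0.193, nor with the replicate number as a block (adjusted p 0.0675). DNAJA1, the abundant partner of cytosolic HSP70, had 64.7 and 67.9 against 70.3 and 70.6 FPKM (0.087, adjusted p 0.0732) and rested on the controls, at 0.053 (adjusted p 0.208) without control replicate 1 and 0.12 (adjusted p 0.0328) without control replicate 2. DNAJA1 also passed under 5 other alternatives, with the largest value under quantile normalization (0.25, adjusted p 0.00429). DNAJA2 (-0.039, adjusted p 0.361) and DNAJB6 (-0.030, adjusted p 0.459), a suppressor of aggregation, were not called. DNAJA2 ran from -0.071 without ETS1 replicate 1 to -0.0079 without ETS1 replicate 2, and with the length trend removed DNAJB6 was at -0.21 (adjusted p 0.00582).

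In class C, whose members have specialised tasks, 2 of 5 were lower and 3 not called, beside 28.4% lower of all genes tested. DNAJC2, which works with HSP70 at the ribosome, fell from 14.6 and 14.8 FPKM to 9.56 and 9.06 FPKM, a loss of 36.7% (log2 change -0.61, SE 0.037, limma adjusted p 0.000631). It lies on chromosome 7 (103312474 to 103344873), where the median change was -0.0057. DNAJC7, which binds both HSP70 and HSP90, went from 13.97 and 14.2 to 12.2 and 12.5 FPKM (-0.17, adjusted p 0.00788) and did not pass without ETS1 replicate 1 (-0.16, adjusted p 0.0591). It was at -0.30 with the length trend removed. The synaptic vesicle J protein DNAJC5, the splicing-associated DNAJC8 and the histone chaperone DNAJC9 had changes of 0.046, 0.055 and 0.029, with adjusted p from 0.239 to 0.505. Leaving out 1 library moved DNAJC9 to 0.0155 (without ETS1 replicate 1) and DNAJC5 to 0.0305 (without control replicate 2). DNAJC8 was at 0.0098 without control replicate 1, at 0.10 without control replicate 2, and at 0.23 (adjusted p 0.00736) under quantile normalization.

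The BAG family, named for a domain that binds HSP70 and releases its client, had 2 higher, 2 lower and 1 not called, where all genes tested also split about evenly (30.7% higher and 28.4% lower). BAG1, a link from HSP70 to the proteasome, fell from 8.03 and 8.59 to 5.82 and 6.21 FPKM, by 27.6% (log2 change -0.41, SE 0.0502, limma adjusted p 0.00274). BAG3, the stress-inducible partner of HSPB8 in selective autophagy, rose from 18.0 and 18.2 to 20.9 and 20.5 FPKM, by 14.3% (0.18, SE 0.0288, limma adjusted p 0.00542). BAG5 rose by 29%, from 9.22 and 9.56 to 12.02 and 12.2 FPKM (0.34, SE 0.0341, limma adjusted p 0.00165). BAG4 went from 9.54 and 9.50 to 8.16 and 8.41 FPKM (-0.18, adjusted p 0.00899), lies on chromosome 8, and with that chromosome's median removed was at -0.032 (adjusted p 0.429). It also did not pass without ETS1 replicate 1 (-0.16, adjusted p 0.0649). BAG1 lies on chromosome 9, where 47.6% of tested protein-coding genes were called lower, and stayed called with the chromosome median removed (-0.31, adjusted p 0.00309). BAG2, an inhibitor of CHIP, had 3.79 and 4.00 against 3.82 and 4.35 FPKM, which overlapped (0.053, adjusted p 0.509; -0.022 without ETS1 replicate 2).

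Small heat shock proteins hold unfolded clients without ATP. HSPB8 (chromosome 12, 119178642 to 119221131) had 5.49 and 4.63 FPKM in the controls, from 635 and 585 reads, and 9.33 and 8.94 FPKM in the ETS1 libraries, from 1530 and 1447 reads. It rose by 80.4%, the largest increase of the 51 genes (log2 change 0.74, SE 0.0759, limma adjusted p 0.00167), and its controls also differed most, by 17.1% of their mean. HSPB1 (HSP27), the most abundant of the 3, had 49.7 and 53.8 against 56.5 and 56.5 FPKM. Its 9.27% difference did not pass (0.13, SE 0.0437, adjusted p 0.0576), though it passed under 7 of 15 alternatives. It was at 0.070 (adjusted p 0.119) without control replicate 1 and at 0.18 (adjusted p 0.0114) without control replicate 2. HSPB11 was level in all 4 libraries, at 17.4 to 17.5 FPKM (0.0043, adjusted p 0.903).

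The chaperonin CCT consists of 8 different subunits, all of which were measured, and 6 were lower, 0 higher and 2 not called, with a median change of -0.28. The 75% called lower stands beside 28.4% of all genes tested and 60.6% of genes with a mean over 50 FPKM, the level of every subunit but CCT5. CCT3 had 184.4 and 190.7 FPKM in the controls and 146.6 and 143.3 FPKM in the ETS1 libraries. CCT6A had 95.0 and 93.8 against 73.3 and 73.2 FPKM, CCT8 had 125.7 and 125.2 against 99.8 and 97.3 FPKM, and CCT2 had 68.6 and 69.7 against 54.0 and 54.7 FPKM. These 4 formed a group with falls of 21.4% to 22.7% and limma adjusted p from 0.000737 to 0.00106. None of them overlapped between groups, as was so for 82.0% of all genes tested (38.9% with the ETS1 values below). TCP1 fell by 13.8% (log2 change -0.21, adjusted p 0.00656) and CCT7 by 9.33% (-0.14, adjusted p 0.0138). CCT7 did not pass without ETS1 replicate 1 or 2 (adjusted p 0.0703 and 0.0724). CCT4, at 100.7 and 99.6 against 98.3 and 97.2 FPKM, and CCT5, at 36.4 and 37.7 against 37.2 and 35.0 FPKM, did not pass (adjusted p 0.285 and 0.467; CCT5 was at 0.0058 without ETS1 replicate 2). Under quantile normalization the median was -0.10, the 4 strongest falls ranged from -0.22 (CCT6A) to -0.16 (CCT3), TCP1 did not pass (-0.042, adjusted p 0.319), CCT7 was at 0.0091 and CCT4 was called higher (0.12, adjusted p 0.0121). With the chromosome median removed CCT4 was called lower (-0.12, adjusted p 0.00973). The direction of CCT4 and CCT7 thus depends on the processing.

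By level per length, CCT3 stood highest and CCT5 lowest in every library, at ratios of 5.06 and 5.05 in the controls and 3.94 and 4.09 in the ETS1 libraries. In the controls the order was CCT3, CCT7, CCT8, CCT4, CCT6A, TCP1, CCT2 and CCT5, and only TCP1 and CCT2 overlapped. In the ETS1 libraries the same order held, but CCT8 and CCT4 now overlapped and TCP1 and CCT2 did not. The span between the most and the least abundant subunit was thus narrower in the ETS1 libraries.

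Prefoldin captures nascent actin and tubulin and passes them to CCT. All 5 prefoldin genes among the 51, which do not cover every subunit, were lower, with a median change of -0.35. Of all genes tested 28.4% were lower. The share was 48.6% of tested protein-coding genes up to 2500 bases long (the class of PFDN1, PFDN2 and PFDN4) and 32.4% of those from 2500 to 5000 bases (PFDN5 and PFDN6). All 5 were also lower under each of the 15 alternatives, with medians from -0.42 (chromosome median removed) to -0.26 (quantile normalization). PFDN2 (chromosome 1, 161100556 to 161118111) had 211.3 and 217.8 FPKM in the controls and 148.1 and 142.3 FPKM in the ETS1 libraries, a fall of 32.3% (log2 change -0.56, SE 0.0336, limma adjusted p 0.000612). PFDN4 fell by 31.5%, from 36.6 and 36.7 to 25.6 and 24.7 FPKM (-0.53, SE 0.0303, limma adjusted p 0.00058). PFDN6, PFDN5 and PFDN1 fell by 22.4%, 20.3% and 17.2%, with adjusted p from 0.00101 to 0.00194. None of the 5 overlapped between groups, as was so for 82.0% of all genes tested. Quantile normalization left PFDN5 at -0.18 and PFDN1 at -0.16, and removal of a trend on level left PFDN2 at -0.35. PFDN2 has the shortest gene length of the 51, at 676 bases, and the 5 genes had a median length of 2158 bases, beside 4039 over all genes tested.

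**Figure D2:**
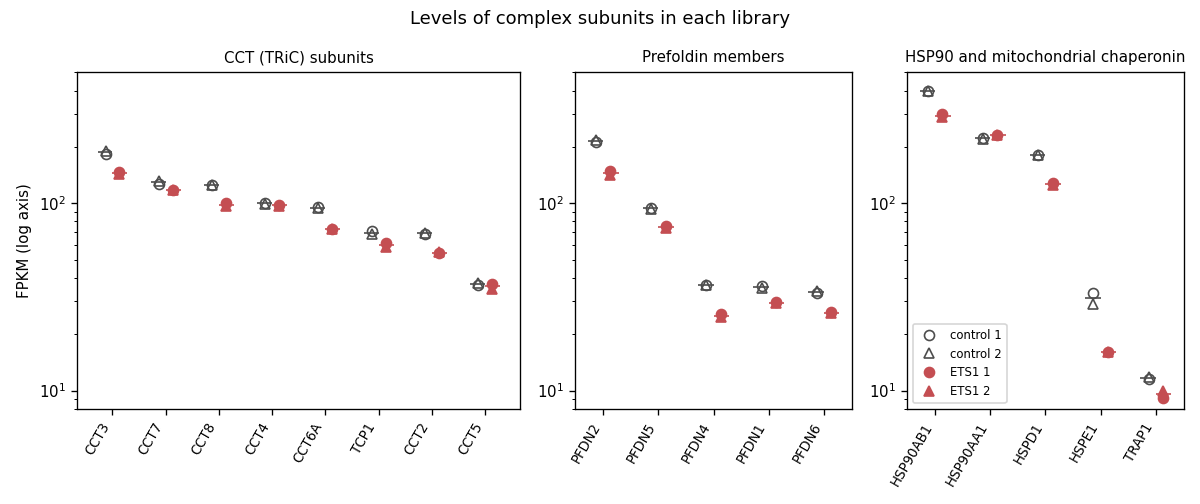
FPKM on a log axis for the CCT subunits, the prefoldin genes, and the HSP90 paralogs with the mitochondrial chaperonin (open grey, control; filled red, ETS1; horizontal lines, group means; 2 libraries per group). CCT4, CCT5 and HSP90AA1 have ETS1 means that differ from the control means by 2.38%, 2.58% and 3.9%, while all 5 prefoldin genes, HSP90AB1, HSPD1 and HSPE1 are lower in the ETS1 libraries.

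The mitochondrial chaperonin pair was lower in both parts. HSPD1 (HSP60), the folding chamber, had 180.0 and 181.2 FPKM in the controls and 129.0 and 125.7 FPKM in the ETS1 libraries, a fall of 29.5% (log2 change -0.50, SE 0.0272, limma adjusted p 0.000534; -0.30 under quantile normalization). HSPE1 (HSP10), its lid, had 33.0 and 29.1 FPKM against 16.1 and 16.0 FPKM, a fall of 48.2% (-0.91, SE 0.0621, limma adjusted p 0.000737). The HSPE1 fall was the largest of the 51 genes, and its controls differed far more than its ETS1 libraries did. The genes lie on opposite strands of chromosome 2, HSPD1 at 197486581 to 197516737 on the minus strand and HSPE1 at 197499994 to 197503457 on the plus strand, inside the annotated extent of HSPD1. In GENCODE 29, 14.2% of the exon bases of HSPE1 overlap HSPD1 and 9.7% overlap the readthrough gene HSPE1-MOB4, and use of strand in the counting is not stated, so the value of HSPE1 is uncertain. The tested protein-coding genes of chromosome 2 had a median change of 0.095, with 19.3% called lower, so HSPD1 and HSPE1 moved against the median of their chromosome. Of all genes over 50 FPKM, the level of HSPD1, 60.6% were lower, with a median of -0.17. Of tested protein-coding genes up to 2500 bases, the length class of HSPE1, 48.6% were lower, with a median of -0.14.

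Gene length and level moved with the changes across the transcriptome, and their part in the result for the chaperones was not tested beyond the values here. Of tested protein-coding genes with a length up to 2500 bases, 48.6% were lower, beside 4 of 6 chaperone genes. From 2500 to 5000 bases the shares were 32.4% of all and 17 of 29 chaperone genes, and from 5000 to 20000 bases 17.5% of all and 6 of 16. With the length trend removed, 31 of the 51 were lower and 8 higher, beside 4070 lower and 3924 higher of all 14306 genes. Of genes with a mean over 50 FPKM, 60.6% were lower, with a median change of -0.17, beside 12 of 19 chaperone genes (63.2%) with a median of -0.21. The share for these abundant chaperones, which include most CCT subunits, was near that of all genes at this level. Between 10 and 50 FPKM 39.1% of all genes and 12 of 21 chaperone genes (57.1%) were lower, and up to 10 FPKM 20.1% and 3 of 11. None of the 6 higher chaperone genes had a mean over 50 FPKM, where 15.1% of all genes were higher. Under quantile normalization 7 of the 19 were called higher, namely HSP90AA1, HSPB1, DNAJA1, DNAJC8, CCT4, PTGES3 and ST13. Of all 14306 genes, 4237 were higher under that normalization. The share for all genes over 50 FPKM was not computed there, and the 15.1% is without it.

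**Figure D3:**
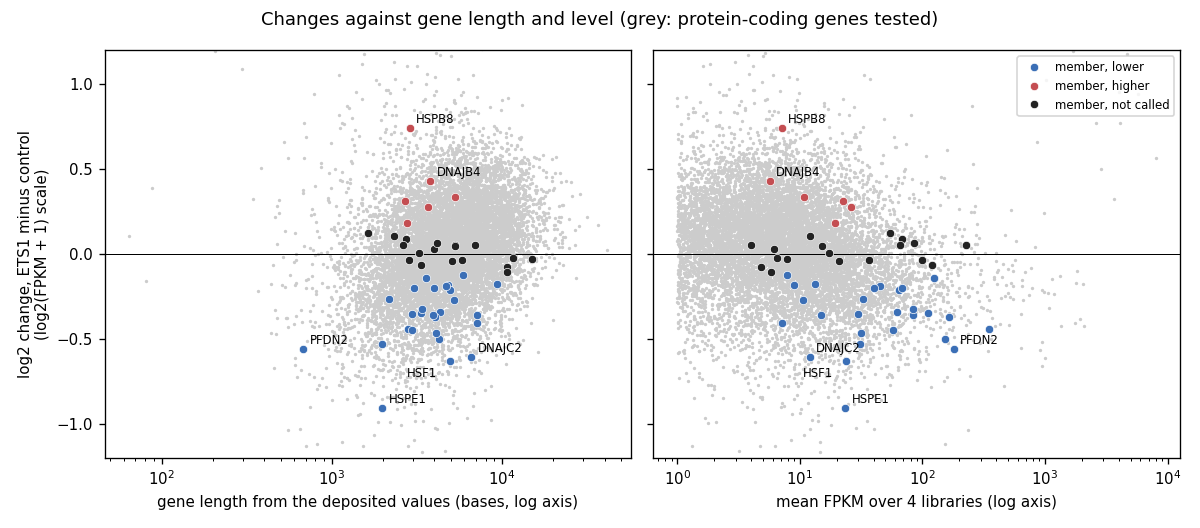
Log2 change of the 51 genes (blue, called lower; red, called higher; black, not called) against gene length and against mean FPKM, both on log axes, over 10890 tested protein-coding genes in grey, of which 38 lie beyond the limits of 1.2 in either direction. Grey points fall with shorter length and with higher level, and HSPE1, HSF1 and DNAJC2 lie toward the lower edge of the cloud.

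**Figure D4:**
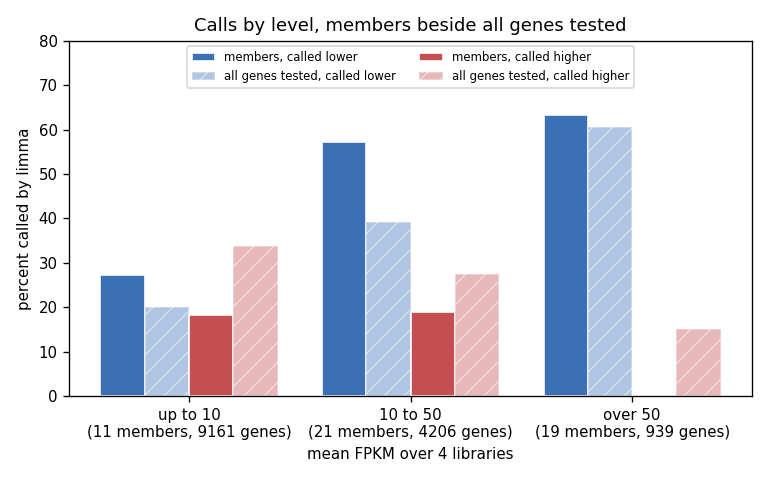
Percent of genes called lower (blue) and higher (red) by limma in 3 classes of mean FPKM, for the chaperone genes (solid) and all genes tested (hatched). Over 50 FPKM the shares called lower are 63.2% and 60.6%, and the shares called higher are 0 and 15.1%. Under quantile normalization, which is not drawn, 7 of these 19 chaperone genes are called higher, beside 4237 of all 14306 genes at any level.

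Other chaperone genes were counted from lists of symbols outside the 51, where 28.4% of all genes tested were lower and 30.7% higher. In the HSP70 family, 6 of 10 tested genes were lower and 1 higher, with a median change of -0.19. HSPA1A, a stress-inducible HSP70 whose reads can be shared with a near-identical neighbour, went from 20.1 and 20.6 to 1.64 and 1.75 FPKM, and HSPA13 was the higher one (0.53). Among 35 other tested cochaperones and chaperonin partners, 17 were lower and 4 higher, with a median of -0.10. HSPBP1 (-0.52), an HSP70 exchange factor, TBCE (-0.47), which folds tubulin after CCT, and RUVBL1 (-0.35), an ATPase of the R2TP complex, fell most. Among 29 other tested J proteins, 10 were higher and 8 lower, with a median of 0.058. These shares, 34.5% and 27.6%, were near those of all genes. The largest changes were those of DNAJC25 (-0.70), DNAJB9 (0.66), a J protein of the endoplasmic reticulum, and DNAJC17 (-0.60). Of 7 other small heat shock genes, 1 reached the filter and it was not called.

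Pseudogene copies can take or give reads. Rows named as pseudogenes of a member summed to at most 71.7 FPKM for ST13, 70.9 FPKM for PTGES3, 12.6 FPKM for CCT8, 8.98 FPKM for CCT6A and 7.89 FPKM for HSP90AB1 in any library, so these values are uncertain where reads were shared. Opposite-strand genes cover 44.2% of the exon bases of BAG2, 42.4% of STUB1, 32.2% of PFDN6, 30.1% of CCT5, 29.3% of TRAP1 and 28.6% of DNAJC9, and reads of these cannot be assigned to a strand from what the sources state.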

How the data were processed

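The 4 libraries and their groups come from the labels. The authors deposited FPKM for each library and a table of their own comparison, which per the file headers holds a mean normalized count per gene (a signal averaged over the libraries), a log2 fold change with its standard error on the log2 scale, and a p-value with an adjusted p-value. HISAT2, HTSeq, DESeq2 and the build hg38 or GRCh38 are named in the submitters' processing notes. Versions, annotation and strand use are not given in the sources used here.

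FPKM was taken as log2(FPKM + 1), which understates changes of low genes. Genes averaging 1 FPKM or more were fitted with limma 3.58.1 in R 4.3.3 (group term, intensity trend, 2 residual and 2.84 prior degrees of freedom), two-sided, with Benjamini-Hochberg adjustment over 14306 genes and a threshold of 0.05. An exact permutation test of 2 libraries against 2 cannot go below 0.333. Reads were recovered from FPKM and the mean normalized counts: 99.9% of values of genes with a mean normalized count over 1000 fell within 0.05 of a whole number. The mean chi-square of replicate reads against counting noise was 3.91 per gene in each group, above the value under counting noise alone. It is a mean over genes with at least 10 reads in the group. It was not computed for the members. Lengths come from this recovery, and 44 of 51 members came within 2% of the exon union length given by GENCODE 29. The fits were tested on simulated data.

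Every member may be named; outside the set, ETS1, HSPA1A, the up to 3 called genes of each list with the largest change, and, as a check of the labelled cell type, markers of squamous and simple epithelium, fibroblasts and leukocytes. Members and lists were chosen with earlier results of these data known. Alternatives were another pseudocount, other filters, median centring, quantile normalization, the replicate block, voom on the recovered counts, subtraction of a trend on length or of the chromosome median, the authors' deposited values, a stricter threshold and leaving out each library. Removal of a trend on level was chosen after seeing the data.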

Additional observations from a re-analysis of the deposited data

How the results depend on the processing

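Of the 33 called members, 25 kept their direction and their side of the threshold under all 15 alternatives that give a value per gene. The count of 27 lower members ran from 22 to 31 over all alternatives. The count of 6 higher members was 13 under quantile normalization and 13 with the level trend removed, the latter chosen after seeing the data, and at most 9 otherwise. Leaving out 1 library at a time gave 6 to 9 higher and 22 to 26 lower members, and 5790 to 7680 called genes in all. The 8451 called genes became 5562 at a mean FPKM of at least 5, where fewer genes were tested, and 5386 at an adjusted p under 0.01. The replicate number as a block gave 6 higher and 26 lower members, with 7283 genes called in all. Deviations of libraries with the same number had r = -0.0456 across 14306 genes. With 2 libraries a group this is a single value, and it cannot show whether they shared a culture or preparation. Only DNAJB2 lost its call under the block.

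Sign changes were as follows, and the cause was not tested. Quantile normalization gave CCT7 0.00909, CCT4 0.12, CCT5 0.0712, PTGES3 0.1, DNAJA2 0.0151, DNAJC9 -0.0324 and BAG2 -0.00189. Removal of the level trend gave CCT7 0.0517, CCT4 0.14, CCT5 0.0649, PTGES3 0.13, DNAJA2 0.0122, DNAJC9 -0.0281 and BAG2 -0.0125. Removal of the length trend gave CCT4 0.0188, DNAJC5 -0.00308 and BAG2 -0.0329, and removal of the chromosome median gave HSPB11 -0.0467, DNAJC9 -0.0344 and BAG2 -0.0113. HSPB11 was -0.0119 under median centring and -0.018 in the authors' deposited table. Leaving out 1 library at a time, HSPA4L ran from -0.0755 (without ETS1 replicate 2) to 0.0289 (without ETS1 replicate 1), CCT5 from -0.0802 (without ETS1 replicate 1) to 0.00581 (without ETS1 replicate 2), and BAG2 from -0.0221 (without ETS1 replicate 2) to 0.13 (without ETS1 replicate 1). Of these genes only CCT7 had been called. With 2 libraries a group, small changes are weakly resolved.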
